A study of Homo sapiens with 18 samples.

Results

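A549 lung adenocarcinoma cells carried 1474 broad domains of ARID1A signal, each an unbroken stretch of 10 kb or more. They were chosen by peak width: a domain was a peak of 10 kb or more in WT anti-ARID1A replicate 1, on chromosomes 1 to 22 or X, that overlapped a peak of 10 kb or more in WT anti-ARID1A replicate 2. These 1474 domains were 1.6% of the 92343 peaks of that list, and they are set against 862590 peaks over 12 lists. The samples were A549 cells under siRNA knockdown of ARID1A (siARID1A), A549 cells with YTHDF1 knocked out (YTHDF1-KO) and unmodified wild-type A549 cells (WT). CUT&Tag, in which a transposase tethered to a bound antibody cuts the chromatin around it, was run on each with an antibody against ARID1A or against YTHDF1, in 2 replicates. The sources used here do not say whether the knockout line is a single clone, how complete the knockdown was, or whether replicates were separate cultures. A p-value therefore measures the spread between these libraries, which may be technical. The 6 libraries made with normal IgG were not analysed here.

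ARID1A is a DNA-binding subunit of the canonical BAF complex, a SWI/SNF machine that uses ATP to slide and eject nucleosomes and keeps enhancers and promoters open. Most sites of such a factor are short, and long uninterrupted stretches of a chromatin mark or cofactor are known from clusters of enhancers and from genes active in the cell type. YTHDF1 recognises N6-methyladenosine on messenger RNA and is best known as a cytoplasmic protein. The series asks what it does on chromatin.

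The 6 anti-ARID1A lists held 71271 to 106882 peaks and the 6 anti-YTHDF1 lists 40562 to 59632. The sequencing depth behind them is unknown, and the peak signals of different libraries are not on a shown common scale, so lists were compared by the length they cover. CDKN2A and CDKN2B, which A549 cells have lost, carried no peak in any of the 12 lists. The epithelial gene KRT8 carried one in 12 lists, as did NQO1 and AKR1B10, while KRT18 and CDH1 did in 11 and EPCAM, also an epithelial marker, in 6. A peak is no sign of expression here, since the neuronal SNAP25 also carried one in 12 lists. CUT&Tag peaks do not measure the amount of ARID1A or YTHDF1 protein, so neither the knockdown nor the knockout could be checked.

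Of 1399 domains for which starts could be looked up, 635 held a listed start of a protein-coding gene, and the stretches before such starts were rich in G and C. The 250 bases before the start are given for 5 of them as RefSeq gives them for GRCh38.p14, 5′ to 3′ on the strand of the gene. They were chosen to show the kinds of gene described further on. FOSB encodes an AP-1 factor (plus strand, chr19:45467746-45467995), and MAFF a small MAF protein that pairs with NRF2 (plus strand, chr22:38201744-38201993). TXNRD1 encodes the antioxidant enzyme thioredoxin reductase (plus strand, chr12:104286782-104287031), and NFKBIA the inhibitor of NF-kappa-B (minus strand, chr14:35404750-35404999). LAMA5 encodes a laminin chain of basement membranes (minus strand, chr20:62367313-62367562). Capitals mark every GGGCGG on either strand, the core of the GC box bound by SP-family factors.
FOSB: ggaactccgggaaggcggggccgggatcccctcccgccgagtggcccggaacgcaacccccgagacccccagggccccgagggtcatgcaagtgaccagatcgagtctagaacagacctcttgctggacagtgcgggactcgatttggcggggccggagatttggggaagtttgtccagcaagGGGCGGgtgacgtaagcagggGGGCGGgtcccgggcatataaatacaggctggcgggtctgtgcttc
MAFF: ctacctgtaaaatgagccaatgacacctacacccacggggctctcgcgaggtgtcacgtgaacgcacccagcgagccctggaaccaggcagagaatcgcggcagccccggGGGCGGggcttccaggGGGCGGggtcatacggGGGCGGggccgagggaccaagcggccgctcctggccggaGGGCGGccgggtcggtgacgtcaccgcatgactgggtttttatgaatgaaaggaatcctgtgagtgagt
TXNRD1: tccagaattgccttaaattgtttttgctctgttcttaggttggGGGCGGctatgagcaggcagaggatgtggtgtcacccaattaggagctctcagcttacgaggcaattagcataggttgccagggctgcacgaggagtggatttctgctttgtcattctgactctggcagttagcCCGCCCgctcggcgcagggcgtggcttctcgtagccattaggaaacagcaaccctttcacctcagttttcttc
NFKBIA: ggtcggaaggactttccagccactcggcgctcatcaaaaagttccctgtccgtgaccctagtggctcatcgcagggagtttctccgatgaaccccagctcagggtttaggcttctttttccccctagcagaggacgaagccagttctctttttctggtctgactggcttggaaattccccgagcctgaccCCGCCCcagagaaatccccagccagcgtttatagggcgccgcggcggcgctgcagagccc
LAMA5: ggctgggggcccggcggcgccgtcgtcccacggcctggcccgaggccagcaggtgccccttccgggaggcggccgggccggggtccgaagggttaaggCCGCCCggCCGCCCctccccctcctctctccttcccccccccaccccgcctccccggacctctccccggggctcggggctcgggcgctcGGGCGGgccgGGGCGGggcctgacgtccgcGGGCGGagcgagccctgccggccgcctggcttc

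These 5 stretches held 1 to 5 GC boxes, with a G and C content of 52.4% at TXNRD1 to 82.8% at LAMA5. Across all 1202 listed starts inside domains, the median G and C content of the same window was 67.2%, with a median of 19 CpG dinucleotides. It was 64.8% with 20 CpG at the 12713 starts in narrower WT replicate 1 peaks, and 52.0% with 5 CpG at the 8217 starts in no such peak. GGGCGG was present before 70.5% of starts in domains, 66.1% of those in narrower peaks and 32.2% of those outside peaks, against 53.7% of all 22132 starts. The domains' starts therefore lay close to those of narrower peaks in base composition. The AP-1 letters TGANTCA stood before 5.74% of starts in domains, 4.20% of those in narrower peaks and 7.07% of those outside peaks, against 5.35% of all starts. The NRF2 letters TGACNNNGC stood before 12.9%, 12.1% and 9.66% of the same 3 sets, against 11.2% of all. TATAAA stood before 4.99%, 5.06% and 15.7% of them, against 9.0% of all. Both strands were searched for each, and a match is a description of the letters, not a binding site. TGANTCA and TGACNNNGC can overlap one another.

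Domains ranged from 10001 to 83050 bp, with a median of 14.7 kb and quartiles of 11.9 and 19.4 kb. Of these, 344 reached 20 kb, 111 reached 30 kb and 19 reached 50 kb. They made up 25.6 Mb, which was 11.2% of the length and 19.6% of the total signal of the WT replicate 1 list. These widths and signals chose the domains and are given without a test. Of the 1829 peaks of 10 kb or more in that list, 355 met no peak of this width in replicate 2, which had 2553. Width was a cut through a continuum, since 4706 narrower replicate 1 peaks touched a peak of 10 kb or more in replicate 2. Just inside the limit lay domains of 10001 bp at ARHGAP45, 10001 bp near NTMT1 and 10012 bp at CBX7, and just outside lay peaks of 9990 bp at VAX2, 9989 bp at CYP26B1 and 9989 bp at ZBTB32. Domains also stood side by side: 377 of 1453 gaps between neighbours were under 10 kb and 166 were under 1 kb.

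Chromosome 19, the most gene-dense human chromosome, held 304 domains, 20.6% of all. They covered 10.3% of its length, although it had 6.32% of the WT peaks shared by both replicates and 7.26% of protein-coding genes. Chromosome 17 followed with 179, chromosome 11 with 109, chromosome 16 with 107 and chromosome 22 with 95. Chromosomes 13 and 18 had 0 domains, chromosome X had 3, chromosome 6 had 4 and chromosome 4 had 6. Gene density alone did not give the order: chromosome 1 had 8.28 genes per Mb and 3.29 domains per 10 Mb, whereas chromosome 22 had 8.88 genes per Mb and 18.7 domains per 10 Mb. The number of copies of each chromosome in these cells was not measured, and its part in this was not tested.

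**Figure D1:**
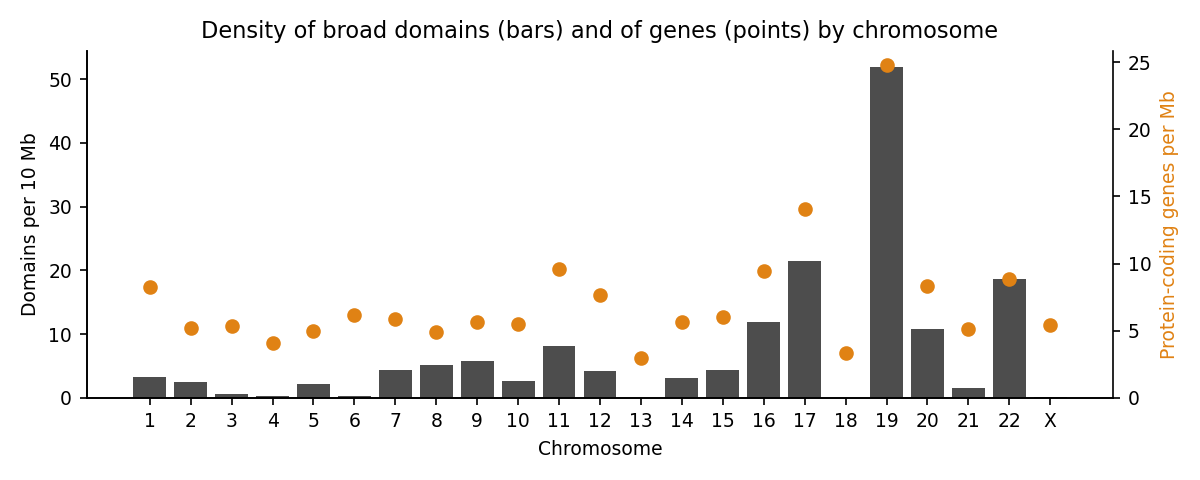
Broad domains per 10 Mb (bars, left axis) and protein-coding genes per Mb (points, right axis) on each chromosome. Chromosome 19 stands highest on both axes, with 51.9 domains per 10 Mb and 24.8 genes per Mb, and chromosomes 13 and 18 have no domain.

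The widest domain by the smaller of its WT widths lay on chromosome 19 from 35722140 to 35805189 (GRCh38) and spanned 83.1 kb. It covered KMT2B, a histone H3 lysine 4 methyltransferase, and 8 more genes, among them PSENEN, a subunit of gamma-secretase, U2AF1L4, a splicing factor, and LIN37, a subunit of the DREAM cell cycle complex. In siARID1A cells 77.6% and 82.2% of it was covered by 23 and 17 anti-ARID1A peaks. In YTHDF1-KO cells 95% and 99.4% was covered by 6 and 3 peaks. The knockdown lists thus held most of the domain in many pieces, and the knockout lists held nearly all of it in few. The anti-YTHDF1 lists covered 63.3% and 69.2% of it in siARID1A, 61.4% and 56.4% in YTHDF1-KO and 76.9% and 43.5% in WT cells. Those were 18 to 24 peaks per list.

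**Figure D2:**
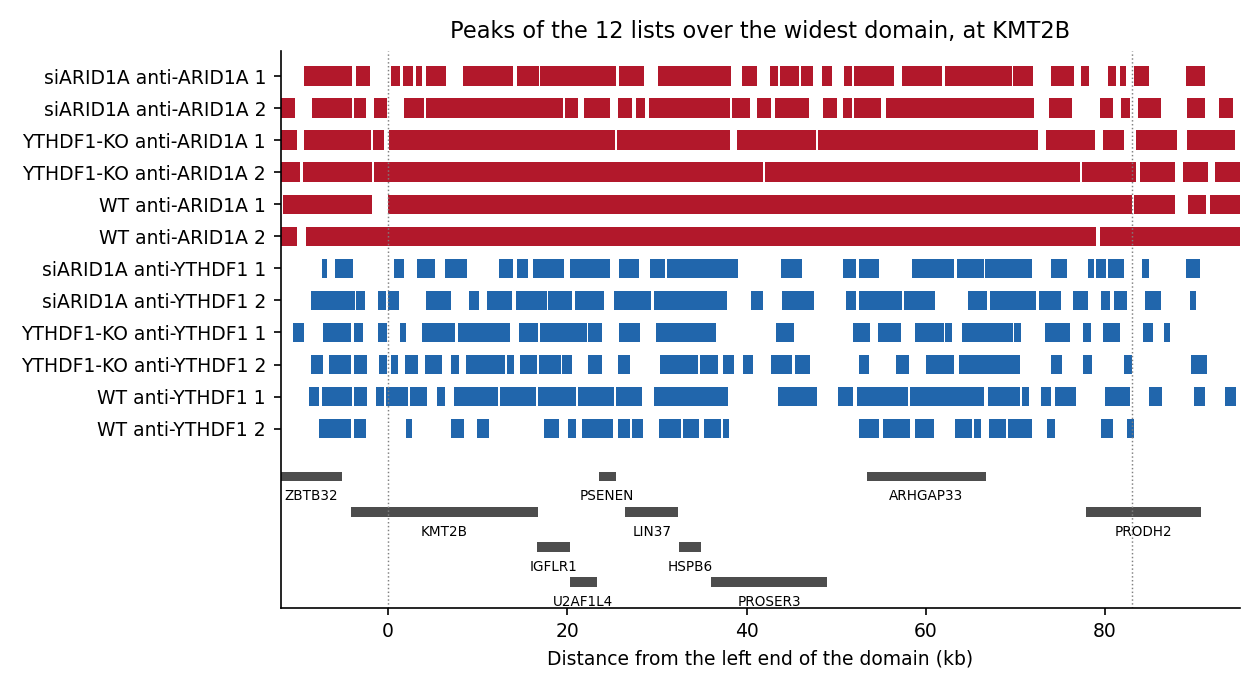
Peaks of the 12 lists (anti-ARID1A in red, anti-YTHDF1 in blue, replicate number after the name) over the 83.1 kb domain at KMT2B, against the distance in kb from its left end. Dotted lines mark its ends and grey bars the protein-coding genes. Anti-ARID1A peaks number 23 and 17 in siARID1A, 6 and 3 in YTHDF1-KO and 1 and 2 in WT cells.

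Of the 12 widest domains, 9 were on chromosome 19. They lay at CIC, which represses genes downstream of RAS and MAP kinase signalling, ARHGEF1, an exchange factor for small GTPases, LTBP4, which holds latent TGF-beta in the matrix, TMEM143, LMTK3, PRX, SHISA7 and at ERCC1, a nuclease subunit of nucleotide excision repair. The domain at ERCC1 also held the start of FOSB. Others were at TNS4, a tensin of cell adhesions, with IGFBP4 on chromosome 17, and at RASA4 on chromosome 7. RASA4, POLR2J3 and UPK3BL1 in the chromosome 7 domain have near-identical copies, so reads there may belong to another copy. Among these 12 the siARID1A anti-ARID1A lists covered least at PRX, with 55.5% and 71.2%. The CIC domain of 59.2 kb kept 89.3% and 92.9% in siARID1A and 98.7% and 98.8% in YTHDF1-KO cells. It also had the highest mean anti-YTHDF1 coverage of the 12, with 83.3% and 86.2% in siARID1A, 81.9% and 74.2% in YTHDF1-KO and 87.2% and 65.1% in WT cells.

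In all, 1260 domains (85.5%) overlapped a protein-coding gene, 193 more had one within 100 kb and 21 had none so near. Gene spans overlapping a domain numbered 1751, and 189 domains overlapped 3 genes or more. Starts were listed for 15812 of 19259 protein-coding genes away from chromosome 8, and the starts of 872 of these genes (5.51%) lay in a domain. The 635 domains with such a start were 45.4% of those away from chromosome 8. The share was 25% among WT peaks of 5 to 10 kb, 17.3% among those of 2 to 5 kb and 9.18% among those of 1 to 2 kb. A longer interval meets more starts by its length alone: domains had 3.65 starts per 100 kb, against 4.20, 6.5 and 6.87 in those 3 classes. Of the remaining 764 domains, 188 held an end of a gene without a listed start, and 576 (41.2%) held neither. Of those 576, 379 overlapped a protein-coding gene and 197 overlapped none.

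Gene lists were read against the 5.51% of all genes with a listed start. Among AP-1 and ATF factors 3 of 11 had a start in a domain, namely FOSB, MAFF and MAFG. Among lung and endoderm lineage factors 4 of 13 had one: CEBPB and ID1, transcriptional regulators, ELF3, an ETS factor of epithelia, and FOXA3, a forkhead factor of endoderm. Among glucocorticoid receptor targets 3 of 11 did, which were the MAP kinase phosphatase gene DUSP1, the clock gene PER1 and NFKBIA. The glucocorticoid receptor is active in A549 cells given a steroid, and the labels name no steroid treatment. Among NRF2 targets 3 of 18 did, namely TXNRD1, the ferritin gene FTL and the exporter gene ABCC2. A549 cells are known for a KEAP1 mutation that leaves NRF2 active. Among genes of the TGF-beta and BMP pathway 3 of 18 did, the ligand TGFB1 and the signal transducers SMAD3 and SMAD6, and among ribosomal protein genes 3 of 12 did, RPL3, RPL13A and RPL19.

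Receptor tyrosine kinase and RAS genes had 2 of 19, the receptors AXL and EPHA2, and the YAP and TEAD pathway had 1 of 12, also AXL. Genes of the actin cytoskeleton and adhesion had 2 of 18, the actin crosslinker ACTN1 and the tensin TNS3, and integrins and laminins had 1 of 14, LAMA5. SWI/SNF subunits had 1 of 24, DPF1, a neuronal BAF subunit. The lists of 17 N6-methyladenosine genes, 9 MYC and cell cycle genes, 10 blood lineage genes, 9 neuronal genes and 7 genes of epithelial to mesenchymal transition had 0 starts in a domain. Starts and spans in domains were looked up for protein-coding genes, so a list of abundant non-coding RNAs is not read here. Other members overlapped a domain with their span and had no listed start inside one. There were 5 among the 20 actin and adhesion genes, among them ACTN4, MYH9 and PXN, and 5 among the 16 genes of epithelial to mesenchymal transition (CDH1, KRT7, KRT8, KRT80 and SNAI1). There were 4 NRF2 targets (ABCC3, FTH1, HMOX1 and TRIM16), 2 AP-1 factors (FOSL1 and MAFK), 2 integrins (ITGA3 and ITGB4), 2 TGF-beta genes and 2 neuronal genes (GRIN1 and RBFOX3). The MYC, SWI/SNF and ribosomal protein lists had 1 each, MYC, BICRA and RPL8, and the other lists of protein-coding genes had 0. MYC and RPL8 lie on chromosome 8, where starts were not used. Of the 16 genes of epithelial to mesenchymal transition, only 7 had a listed start away from that chromosome. A span with no listed start inside a domain therefore does not place the gene's start outside it. The counts for all these lists are small, and the lists were assembled with results of these data known.

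After ARID1A knockdown the lists held the domains as more and shorter peaks. The siARID1A anti-ARID1A lists covered 65.3% and 74.7% of the domains' length, the YTHDF1-KO lists 93.6% and 92.2%, and the WT lists 100% and 96.7%. The WT values are high by the choice of domains. A domain met 4.97 and 4.25 peaks on average in siARID1A, 2.07 and 2.33 in YTHDF1-KO and 1 and 1.56 in WT. The median over domains of the widest peak was 4.08 and 5.72 kb in siARID1A, 14.7 and 12.8 kb in YTHDF1-KO, and 14.7 and 18.4 kb in WT. No siARID1A value overlapped a YTHDF1-KO value in any of these 3 measures.

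Between siARID1A and YTHDF1-KO, neither of which chose the domains, the covered share was 70.03 ± 6.63% and 92.9 ± 1.01% (mean ± SD, n = 2 each), a difference of -22.8 percentage points. Peaks per domain differed by 2.41 and the widest peak by -8.86 kb. With 2 libraries against 2, an exact two-sided permutation test cannot give a p below 0.333, which each of the 3 gave (0.444 after Benjamini-Hochberg adjustment over 8 tests). The knockdown lists were also smaller everywhere: they covered 3.27% and 4.21% of the genome, against 7.95% and 7.72% in YTHDF1-KO and 7.52% and 8.79% in WT. Divided by that genome share, domain coverage was 20.01-fold and 17.7-fold over the genome in siARID1A, 11.8-fold and 11.9-fold in YTHDF1-KO, and 13.3-fold and 11.0-fold in WT. On the log2 scale the domains' enrichment in siARID1A was 0.67 above that in YTHDF1-KO, 1.59-fold (exact p = 0.333, adjusted 0.444). Against YTHDF1-KO, the siARID1A lists were thus reduced by a smaller factor inside the domains than over the genome. Coverage cannot exceed a domain's whole length, so the highest possible fold falls as genome share rises. WT replicate 1 stood at its ceiling of 13.3-fold by the rule. These folds therefore cannot show where a loss lay, and how library depth bears on them was not tested.

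**Figure D3:**
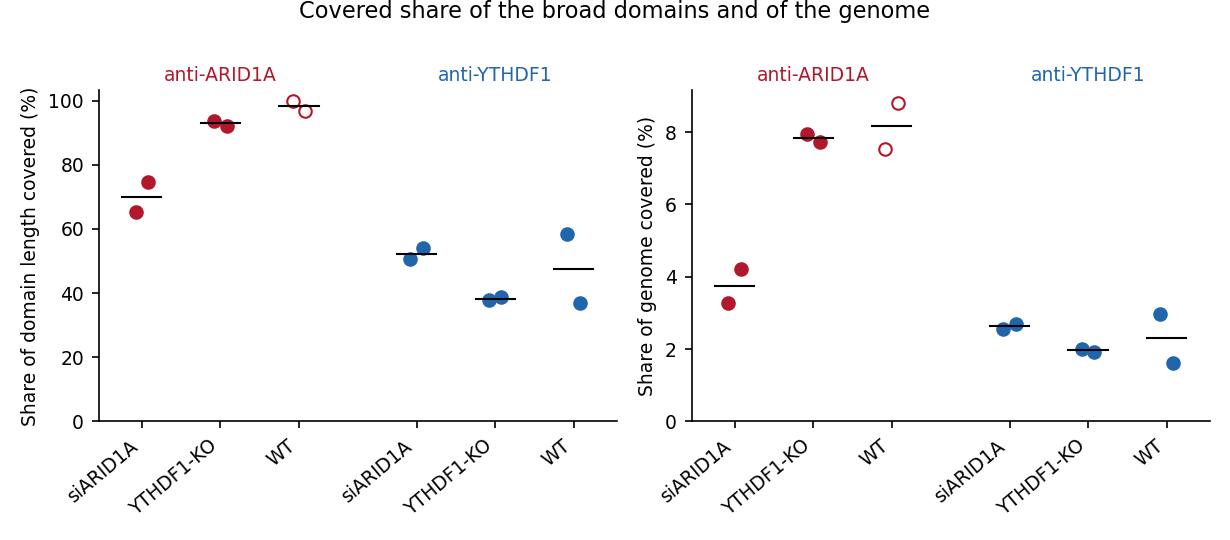
Share of the domains' summed length (left) and of chromosomes 1 to 22 and X (right) covered by the peaks of each library, in percent. Points are libraries, lines are means of 2, and open points are the WT anti-ARID1A libraries that chose the domains. Anti-ARID1A points lie at 65.3% and 74.7% in siARID1A and above 92% in both other conditions.

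Few domains were lost altogether. A domain was called lost where under 50% of it was covered in both libraries of a condition, which held for 105 domains (7.12%) in siARID1A, against a background of 51.6% of the 70446 WT replicate 1 peaks found in replicate 2. In YTHDF1-KO 0 domains were called, against 17.7%. With only replicate 1 or only replicate 2 of siARID1A counted, 310 and 143 domains were under 50%. The share of WT peaks called lost in siARID1A was 34.5% at 5 to 10 kb, 51.1% at 2 to 5 kb and 56.7% at 1 to 2 kb. Among the 355 shared WT peaks of 10 kb or more in replicate 1 alone it was 26.5%, and in YTHDF1-KO 0.845%. A long peak can be covered in part by many short ones, whereas a short peak is mostly held or missed whole. No domain was without a peak in both siARID1A libraries, against 29.7% of all those peaks.

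**Figure D4:**
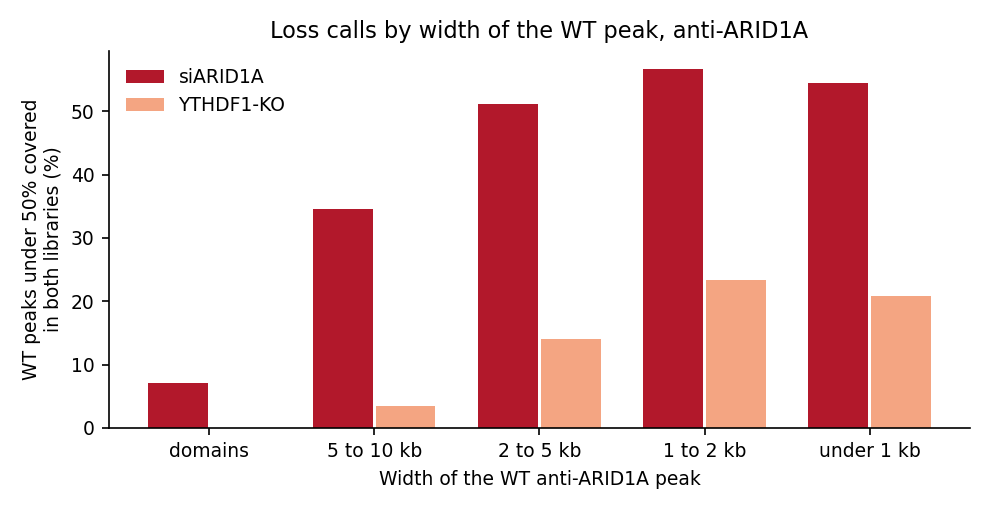
Share of WT anti-ARID1A peaks, by width, of which under 50% was covered in both libraries of siARID1A (dark) or YTHDF1-KO (light). The share in siARID1A was 7.12% among domains and 56.7% among peaks of 1 to 2 kb, and in YTHDF1-KO it was 0 among domains. Peaks of 10 kb or more in replicate 1 alone are not drawn.

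The position of highest signal in WT replicate 1 was still inside a peak of both libraries for 1357 domains (92.1%) in siARID1A, against 33.9% of all shared WT peaks, and for 1469 (99.7%) in YTHDF1-KO, against 63.5%. The widths nearest to the domains were closer to them. Shared WT peaks of 10 kb or more in replicate 1 alone gave 83.4% in siARID1A and 97.5% in YTHDF1-KO. Those of 5 to 10 kb gave 70.5% and 93.7%. A peak of 10 kb or more remained in both libraries for 76 domains (5.16%) in siARID1A, against 0.112% of all shared WT peaks, and for 859 (58.3%) in YTHDF1-KO, against 2.67%. In single libraries these were 106 and 255 domains in siARID1A, and 1137 and 975 in YTHDF1-KO. Both backgrounds are low by the width rule, since most shared WT peaks were under 10 kb in WT. They also include the domains, which were 76 of the 79 peaks so counted in siARID1A and 859 of the 1880 in YTHDF1-KO. Among the 355 shared WT peaks of 10 kb or more in replicate 1 alone, the share was 0% in siARID1A and 14.4% in YTHDF1-KO. In siARID1A cells the WT summits were thus mostly held and peaks of this width mostly were not. Wider domains were covered more fully: in siARID1A, those of 10 to 15 kb were covered to 60.9% and 70.3%, and those of 30 kb or more to 73.4% and 81.0%. Those of 30 kb or more were held in 10.2 and 8.33 peaks each.

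Since the WT lists chose the domains, the choice was also made in the YTHDF1-KO lists, by the same widths. It gave 1147 domains. Of their length the siARID1A anti-ARID1A lists covered 67.6% and 77.1%, the YTHDF1-KO lists 100% and 94.6%, and the WT lists 93.4% and 96.1%. The YTHDF1-KO value minus the WT value was -5.50 percentage points with domains chosen in WT and 2.60 with domains chosen in YTHDF1-KO. Its sign followed the lists that chose the domains. The siARID1A lists were the lowest under both choices.

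The anti-YTHDF1 lists covered 50.5% and 54.1% of domain length in siARID1A, 37.7% and 38.7% in YTHDF1-KO, and 58.5% and 36.9% in WT. The YTHDF1-KO lists, from cells labelled as lacking the target, lay next to WT replicate 2 and below WT replicate 1. Their coverage was 38.2 ± 0.717% in YTHDF1-KO and 47.7 ± 15.3% in WT (mean ± SD, n = 2 each), a difference of -9.45 percentage points that was smaller than the spread within WT (exact two-sided permutation p = 1, adjusted 1). Without WT replicate 1 it was 1.35. Between siARID1A, at 52.3 ± 2.58%, and WT the difference was 4.64 points (exact p = 1, adjusted 1), and -6.17 without WT replicate 2. Both comparisons share the WT libraries.

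Over the 8 libraries of siARID1A and YTHDF1-KO, anti-ARID1A lists covered 81.4 ± 13.7% and anti-YTHDF1 lists 45.2 ± 8.28% (mean ± SD, n = 4 each), with no overlap. The difference was 36.2 points, with p = 0.0286, the smallest that the exact two-sided permutation test can give, and 0.229 after adjustment over 8 tests. The domains were chosen with the anti-ARID1A antibody, though in WT cells, and this choice favours the anti-ARID1A lists. No choice was made in anti-YTHDF1 lists, so the test cannot tell a difference between the antibodies from the choice of domains. The anti-YTHDF1 lists were shorter throughout, at 1.63% to 2.96% of the genome. Relative to that, they covered the domains 18.7-fold to 22.6-fold over the genome. On the log2 scale the anti-ARID1A enrichment was 3.90 and the anti-YTHDF1 enrichment 4.30, a difference of -0.40 or 0.759-fold (exact p = 0.0857, adjusted 0.343). With all lists cut to equal length that difference was -0.07 (exact p = 0.629, adjusted 0.762), while the difference in covered share was 35.5 points. Neither difference passed the threshold of 0.05 after adjustment.

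Position by position, the domain's highest WT anti-ARID1A signal fell inside anti-YTHDF1 peaks of both libraries for 1081 domains (73.3%) in siARID1A, against 15.9% of all shared WT anti-ARID1A peaks. The count was 753 (51.1%) in YTHDF1-KO, against 8.99%, and 980 (66.5%) in WT, against 12.2%. Most shared WT peaks are far narrower than a domain. Among those of 10 kb or more in replicate 1 alone, the shares were 48.7% in siARID1A, 33.2% in YTHDF1-KO and 43.9% in WT. At 5 to 10 kb they were 41.6%, 24.7% and 33.9%. Under 50% was covered in both anti-YTHDF1 libraries for 586 domains (39.8%) in siARID1A, against 72.8%, for 958 (65.0%) in YTHDF1-KO, against 82.5%, and for 555 (37.7%) in WT, against 74.7%. Coverage by the 2 antibodies ran together in part across the domains. Over the 1474 domains, Spearman's rho between the siARID1A anti-ARID1A share and the anti-YTHDF1 share was 0.66 in siARID1A, 0.55 in YTHDF1-KO and 0.57 in WT. It was 0.22 with width and 0.33 with the percentile of highest signal in WT replicate 1. These are descriptions across domains that share libraries, base composition and mappability.

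In all 12 lists except WT anti-ARID1A replicate 1, which covers the domains whole by the rule, coverage was highest around gene starts. Within 1 kb of a listed start, the siARID1A anti-ARID1A lists covered 80.1% and 87.0% of domain length, and 63.6% and 73.4% of the rest. The YTHDF1-KO anti-ARID1A lists covered 97.5% and 96.8% near starts and 93.2% and 91.7% of the rest, and WT replicate 2 covered 98.8% and 96.5%. The gap was 16.5 and 13.6 points in siARID1A and 4.34 and 5.11 points in YTHDF1-KO with anti-ARID1A, and 16.2 to 19.8 points in the 6 anti-YTHDF1 lists. In YTHDF1-KO cells anti-YTHDF1 covered 52.0% and 53.6% near starts and 35.7% and 36.8% of the rest. Of the 1202 starts in domains, 367 (30.5%) lay inside a peak of all 12 lists, among them the starts of NFKBIA, LAMA5, PER1, TGFB1, FTL, CEBPB and RPL3. The share was 6.7% of all 22132 listed starts and 11.5% of those held by both WT anti-ARID1A lists. The last is the closer background, since starts in domains lie in WT anti-ARID1A replicate 1 by the rule. Of the 1190 held by both WT anti-ARID1A lists, 56 (4.71%) were in no anti-ARID1A peak of either siARID1A library and 7 (0.588%) in none of either YTHDF1-KO library. Of the 12868 starts anywhere held by both WT lists, these shares were 8.82% and 2.36%.

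**Figure D5:**
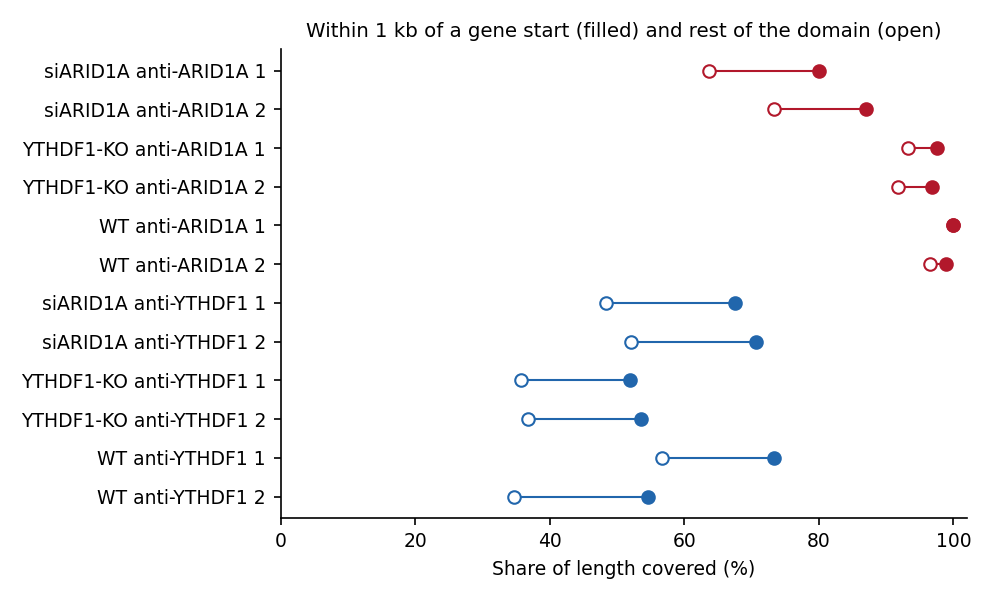
Share of domain length covered within 1 kb of a listed gene start (filled points) and in the rest of the domains (open points), in percent, by library. Filled points lie to the right in every list but WT anti-ARID1A 1, where both are at 100%, and the gap is 16.2 to 19.8 percentage points in the anti-YTHDF1 lists.

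At single genes the pieces that stayed differed. The FOSB start, in the 54.0 kb domain shared with ERCC1, lay in a peak of all 6 anti-ARID1A lists, of both siARID1A anti-YTHDF1 lists, of neither YTHDF1-KO anti-YTHDF1 list and of 1 WT anti-YTHDF1 list. Its domain was covered to 86.4% and 90.3% by anti-ARID1A in siARID1A, against 96.6% and 97.5% in YTHDF1-KO. The 49.5 kb domain over MAFF and TMEM184B was covered to 62% and 62.4% in siARID1A, against 96.6% and 97.4% in YTHDF1-KO, yet its MAFF starts stayed in peaks of all 6 anti-ARID1A lists. MAFG, its paralogue, lay in a 13.1 kb domain that kept 96.5% and 97.7% in siARID1A, against 100% and 94.8% in YTHDF1-KO.

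TXNRD1 had a 16.3 kb domain on chromosome 12 from 104274450 to 104290740. Anti-ARID1A covered 69.6% and 62.7% of it in siARID1A, 95.3% and 98.1% in YTHDF1-KO, and 100% and 97.8% in WT. Anti-YTHDF1 covered 44.0% and 18.4% in siARID1A, 0% and 8.18% in YTHDF1-KO, and 29.2% and 36.5% in WT. The YTHDF1-KO anti-YTHDF1 values were below those of every other list at this domain. The domain at EPHA2, a receptor tyrosine kinase for ephrins, was similar, with anti-YTHDF1 at 50.1% and 43.0% in siARID1A, 12.9% and 15.1% in YTHDF1-KO and 28.6% and 29.1% in WT. At AXL it was not, with 52.5% and 59.7% in siARID1A, 47.5% and 52.8% in YTHDF1-KO and 67.0% and 42.4% in WT. These 3 domains come from the fixed lists, and the contrast among them was picked out after their values were seen.

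PER1 kept nearly its whole 19.7 kb domain, with anti-ARID1A at 98.5% and 94.9% in siARID1A, against 100% and 99.4% in YTHDF1-KO. LAMA5 kept 90.5% and 90.9% of 30.5 kb in siARID1A, against 94.3% and 95.3% in YTHDF1-KO, and its widest peak was 23.1 and 23.4 kb in siARID1A, against 23.2 and 23.5 kb in YTHDF1-KO. These are examples of domains that stayed broad after knockdown. NFKBIA, by contrast, was short in both conditions: its 12.2 kb domain was covered to 52.7% and 62.6% in siARID1A and 55.7% and 64.5% in YTHDF1-KO, against 100% and 97.4% in WT. The widest peak there was 3.24 and 4.29 kb in siARID1A, 3.25 and 4.31 kb in YTHDF1-KO and 12.2 and 12.3 kb in WT. It was among the 6 domains covered least in YTHDF1-KO, with SCTR, NELFB, NACC2, MTCL2 and NEURL3. NELFB encodes a subunit of the factor that pauses RNA polymerase II, and its domain was covered to 11.1% and 48.4% in siARID1A, against 49.2% and 57.6% in YTHDF1-KO.

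The domains covered most in siARID1A were at PPP1R16A, with 100% and 100%, IL17REL, KMT5C, a histone H4 lysine 20 methyltransferase, ASPSCR1, SLC16A3, a lactate exporter, and in a region of chromosome 21 without a protein-coding gene. SLC16A3 was covered to 95.7% and 100% by anti-ARID1A in siARID1A, and to 95.5% and 92.1% by anti-YTHDF1. Those covered least were nearest to WDR38 (0% and 17.1%) and WDR5 (10.5% and 6.94%), and at SDHAF1, an assembly factor of succinate dehydrogenase, NEK6, a mitotic kinase, MN1 and IL6R, the interleukin 6 receptor. IL6R was covered to 25.3% and 21.2% in siARID1A, against 48.3% and 78.1% in YTHDF1-KO and 100% and 93.0% in WT. Its anti-YTHDF1 values were 0% and 7.26% in siARID1A, 11.5% and 0% in YTHDF1-KO and 17% and 0% in WT. WDR38, WDR5 and NEK6 lie on the far part of chromosome 9.

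That part of chromosome 9, beyond 80 Mb, held 69 domains and 26 of the 105 called lost in siARID1A (37.7% of its domains). Anti-ARID1A covered 50.5% and 57.6% of domain length there in siARID1A, 87.1% and 83.3% in YTHDF1-KO and 100% and 97.6% in WT. In the 11 domains up to 80 Mb, of which 1 was called lost, it covered 50.9% and 66.8% in siARID1A, 83.5% and 84.97% in YTHDF1-KO and 100% and 92.5% in WT. Anti-YTHDF1 covered 40.6% and 45.2% beyond 80 Mb in siARID1A, 26.8% and 27.1% in YTHDF1-KO and 65.3% and 41.8% in WT. Beyond 40 Mb of chromosome 17, the 103 domains were covered to 77.2% and 85.9% by anti-ARID1A in siARID1A, 97.5% and 96.8% in YTHDF1-KO and 100% and 97.1% in WT, and 1 was called lost. In the 76 domains up to 40 Mb the shares were 64.0% and 75.9% in siARID1A, 94.3% and 92.0% in YTHDF1-KO and 100% and 96.3% in WT, and 1 was called lost. On chromosome 2 the YTHDF1-KO anti-ARID1A lists covered 82.1% and 78.9% of 62 domains, the lowest of any chromosome, and the siARID1A lists 60.2% and 69.98%. The copy number of these chromosomes in the 3 conditions was not measured, and its part in these values was not tested. Over all chromosomes, 7.12% of domains and 51.6% of shared WT peaks were called lost in siARID1A. The share among shared WT peaks of these parts of chromosomes 9 and 17 is not given here. Whether their loss calls are particular to the domains therefore cannot be told. Without chromosomes 2, 9 and 17, the 14 results recomputed for the conditions and antibodies kept their direction.

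Several domains were arrays of genes for structural and small RNAs rather than of protein-coding genes. Of 49 ribosomal RNA genes in the annotation, 17 (34.7%) overlapped a domain, as did 25 of 154 small nuclear RNA genes (16.2%) and 51 of 443 transfer RNA genes (11.5%). The shares were 8.77% of protein-coding genes, 7.33% of microRNA genes, 2.76% of long non-coding RNA genes and 0.611% of pseudogenes. Neighbouring domains of 15.1 and 15.3 kb on chromosome 1 held 13 copies of the 5S ribosomal RNA gene, RNA5S5 to RNA5S17. Others on chromosome 21 held the 45S ribosomal RNA genes RNA45SN1 and RNA45SN2, and a 35.0 kb domain on chromosome 1 held 23 transfer RNA genes. On chromosome 19, clusters of SNAR genes, short RNAs made by RNA polymerase III, lay in 6 domains. The annotation counts SNAR genes as small nuclear RNA genes, and they were most of the 25 above. All of these arrays are repeated sequences, where a read cannot be placed with confidence on a single copy.

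Anti-YTHDF1 coverage was high at the ribosomal RNA arrays in all 3 conditions. Across the 4 domains with ribosomal RNA genes its median was 94.3% and 95.7% in siARID1A, 91.3% and 91.1% in YTHDF1-KO and 96.9% and 95.1% in WT, against 48.2% and 51.8%, 34.4% and 34.9%, and 58.3% and 33.5% across all domains in the same conditions. Across the 11 domains with genes annotated as small nuclear RNA, 6 of them with SNAR genes, it was 81.1% and 86.4% in siARID1A, 80.8% and 80.9% in YTHDF1-KO and 87.9% and 74.8% in WT. Across the 14 domains with transfer RNA genes it was 69.7% and 69.4% in siARID1A, 57.2% and 56.8% in YTHDF1-KO and 72.2% and 50.1% in WT. Of the domains with a single small nuclear RNA gene, the one with RNU6-2 was covered to 62.7% and 62.1% in siARID1A, 16.3% and 15.2% in YTHDF1-KO and 57.0% and 19.6% in WT. The 6 domains with the highest anti-YTHDF1 coverage lay near CCDC200 with 3 small nuclear RNA genes, near ZFP14, near ZNF875, near IZUMO2 with 5 SNAR genes, and at 2 places on chromosome 21 with ribosomal repeats or related pseudogenes. Near ZFP14 the order of the antibodies was turned round in the knockdown: the anti-YTHDF1 lists covered 100% and 99.4% in siARID1A, and the anti-ARID1A lists 72.7% and 50.6%. This was not particular to that domain. In siARID1A the anti-ARID1A medians were 82.4% and 91.3% at ribosomal RNA genes, below those of anti-YTHDF1. At small nuclear RNA genes they were 77.6% and 83.1%, overlapping them. At transfer RNA genes they were higher, at 82.1% and 89.1%. Without the 37 domains at such genes or at genes with near-identical copies, the anti-ARID1A minus anti-YTHDF1 difference was 36.7 points.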

How the data were processed

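CUT&Tag peak lists of A549 cells were analysed for 3 conditions and 2 antibodies, with 2 replicates each, grouped by the sample titles. Each sample has its own deposited list. The submitters' processing notes name SEACR 1.3, a peak caller, Bowtie2 2.4.2, an aligner, deepTools 3.5.2, fastp 0.23.2, bedtools 2.30.0 and SAMtools 1.9, and the builds hg38 and GRCh38. The sources used here give neither settings nor the use of IgG. Each line holds a position, the authors' total and highest signal of the peak, in coverage units of an unstated scale, so signal served only to rank or filter peaks within a list. Depth is unknown.

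Computed here, with Python 3.11.15, numpy 2.4.6, pandas 2.3.3 and scipy 1.17.1, were the length, number and width of peaks overlapping each domain by 1 bp or more. Shares were summed over domains per library and compared by exact two-sided permutation over libraries, adjusted by the Benjamini-Hochberg method over 8 tests, at 0.05. Overlap counting was tested on simulated peak lists. Genome share is of 3030 Mb, the summed spans to the last peak or gene end. Gene spans and starts came from RefSeq tables of GRCh38.p14 and sequences from the same source. Starts on chromosome 8 were not used here. Coordinates are 1-based. The members, gene lists and tests were chosen with earlier results of these data known. Named domains were the 12 widest by their smaller WT width, the 6 highest and 6 lowest in siARID1A, the 6 lowest in YTHDF1-KO, the 6 highest with anti-YTHDF1, up to 3 per gene list and the 3 just inside 10 kb, each called by the protein-coding gene it overlaps most or is nearest to. A few of these are not reported here. Alternatives were widths of 8 and 15 kb, a 50% overlap, domains bounded by WT replicate 2, domains chosen in YTHDF1-KO, lists without the 25% of peaks lowest in signal or cut to equal length, a lost call at 25%, omission of chromosomes 2, 9 and 17, a replicate block and each library left out. Leaving out domains at small RNA or copied genes was chosen after seeing the data.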

Additional observations from a re-analysis of the deposited data

Results flagged for a closer look

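The difference between siARID1A and YTHDF1-KO in the covered share of the domains ran in opposite directions with the 2 antibodies, and this is why it is listed. It was -22.8 percentage points with anti-ARID1A and 14.1 with anti-YTHDF1, and every library of siARID1A lay on its own side of both YTHDF1-KO libraries in each case. The difference between these differences was -36.9 points, with p = 0.0556 in an exact permutation test within antibodies over 36 splits, which is the smallest p that this design can give. Relative to each library's genome share, on the log2 scale, siARID1A minus YTHDF1-KO was 0.67 with anti-ARID1A and 0.03 with anti-YTHDF1, and the difference of 0.64 gave p = 0.222 in the same exact test. The siARID1A lists covered 3.27% and 4.21% of the genome with anti-ARID1A, against 7.95% and 7.72% in YTHDF1-KO. With anti-YTHDF1 they covered 2.56% and 2.70%, against 2.01% and 1.91% in YTHDF1-KO. With all 12 lists cut to equal length, siARID1A minus YTHDF1-KO was -25.4 points with anti-ARID1A and 12.7 points with anti-YTHDF1, and the difference of -38.0 points again gave p = 0.0556 in the same exact test.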

How the results depend on the processing

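Of 211 values recomputed for 15 results, 186 were labelled unchanged. For the tests this meant the same direction and side of the threshold. For differences from WT in anti-ARID1A coverage it meant a move smaller than the spread between replicates. Shares of domains were judged by their fold change instead. The lowest adjusted p of the exact permutation tests was 0.229, and between conditions their p cannot fall below 0.333. Keeping to the same side of 0.05 therefore does not show that these results are stable. Domains of 15 kb or more gave a lost share of 2.65% in siARID1A and a YTHDF1-KO minus WT difference of -4.19 points. There the peak limit was raised with the domains, and 2.65% held a peak of 15 kb or more in both siARID1A libraries. With domains of 8 kb or more the lost share in YTHDF1-KO was 0.132%, and with the 25% of peaks lowest in signal left out of each list it was 0.0678%. With lists cut to equal length it was 0.271%, the lost share in siARID1A was 13.4% and the YTHDF1-KO minus WT difference -6.67 points. With domains chosen in YTHDF1-KO the lost share in siARID1A was 3.84% and the YTHDF1-KO minus WT difference 2.60 points; results that use the YTHDF1-KO anti-ARID1A libraries as a comparison were not run there. With a limit of 25% the lost share in siARID1A was 0.136%. The cause of these changes was not tested.

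Leaving out 1 library at a time, the covered difference between YTHDF1-KO and WT with anti-YTHDF1 ranged from -20.3 to 1.35 points and turned positive without WT replicate 1. That between siARID1A and WT ranged from -6.17 to 15.4 and turned negative without WT replicate 2. The lost share ranged from 9.70% to 21.0% in siARID1A and from 0.164% to 0.823% in YTHDF1-KO, since a single library then makes the call or a single WT list chooses the domains. The share with a peak of 10 kb or more ranged from 2.94% to 17.3% in siARID1A and from 39.1% to 77.1% in YTHDF1-KO. Against WT, the anti-ARID1A difference ranged from -38.2 to -23.7 points in siARID1A and from -11.8 to -4.78 in YTHDF1-KO. Between siARID1A and YTHDF1-KO with anti-ARID1A it ranged from -27.5 to -18.2 points.

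No pairing by replicate number was seen domain by domain: correlations of same-numbered deviations across domains lay between -0.06 and 0.03 over 10 pairs of groups. These correlations cannot show a shift shared by whole libraries, so pairing of that kind stays unknown. With a replicate block the differences were the same and p was 0.125 for anti-ARID1A against anti-YTHDF1 (adjusted 0.667) and 0.5 for siARID1A against YTHDF1-KO. With 2 libraries a group and depth unknown, no p-value here passed the adjusted threshold.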
